A study of Mus musculus with 24 samples.

Results

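The 7 genes described here, Alas1, Alad, Cpox, Fech, Blvra, Blvrb and Hebp1, encode enzymes of haem synthesis, enzymes that act on the haem breakdown product biliverdin, and a haem-binding protein. They were chosen by symbol, as rows of the liver expression table whose gene name is one of these 7, out of 15582 genes in the table. All 7 also passed the filter on low values that kept 6540 genes for testing. The livers came from male B6C3F1 mice, a hybrid strain, 4 weeks old, that drank water holding dichloroacetic acid (DCA) at 0 (control), 1, 2 or 3.5 g/L for 6 days. DCA is a by-product of water chlorination and an inhibitor of pyruvate dehydrogenase kinase. Each dose had 6 libraries, 24 in all, from total RNA of frozen liver of mixed lobes. The labels give no difference in genotype and no other agent. The labels do not say whether animals were pooled, so the p-values measure the spread between libraries.

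Haem is made in a chain that starts in the mitochondrion, runs through the cytosol and ends in the mitochondrion again, where ferrochelatase inserts iron into protoporphyrin. In liver the first enzyme, ALA synthase 1, sets the rate, its gene is repressed by haem, and much of the product goes into cytochromes P450. Haem oxygenases open the haem ring to give biliverdin, iron and carbon monoxide. Biliverdin reductases, in adults mainly form A, turn biliverdin into bilirubin, which is conjugated and passed into bile.

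Promoter sequence is shown for the 4 members whose behaviour differed most: Cpox and Blvrb, which were higher at 2 and 3.5 g/L, Blvra, which was lower at 3.5 g/L, and Alas1, whose level varied most between libraries of 1 dose. RefSeq windows of GRCm38.p6, from 250 bases before to 50 bases after a gene start, were found for 6 members, with 9 windows in all because some have a second annotated start. They were searched on both strands for 7 motifs. The core bound by the factor NRF-1 was GCGCANGC. The motif of GATA factors was AGATAAG, and the E-box was CACGTG. The core of the antioxidant response element was TGACNNNGC. The GC box was GGGCGG, the TATA box was TATAAA and the last motif was the CCAAT box. Capitals mark matches, and positions are counted from the annotated start.
Alas1, second annotated start, chr9:106247681-106247980, minus strand: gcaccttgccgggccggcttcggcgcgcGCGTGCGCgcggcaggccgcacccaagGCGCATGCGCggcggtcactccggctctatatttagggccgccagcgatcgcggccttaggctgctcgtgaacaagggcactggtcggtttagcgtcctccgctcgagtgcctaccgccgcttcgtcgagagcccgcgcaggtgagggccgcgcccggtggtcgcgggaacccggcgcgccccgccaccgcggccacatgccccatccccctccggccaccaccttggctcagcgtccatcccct
Cpox, chr16:58669958-58670257, plus strand: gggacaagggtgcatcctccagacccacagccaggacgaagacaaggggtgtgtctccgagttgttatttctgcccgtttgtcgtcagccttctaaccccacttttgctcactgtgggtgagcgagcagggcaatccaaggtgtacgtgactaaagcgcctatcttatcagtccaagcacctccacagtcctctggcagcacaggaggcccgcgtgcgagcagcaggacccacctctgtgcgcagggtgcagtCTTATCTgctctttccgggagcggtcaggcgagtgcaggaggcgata
Blvra, chr2:127070407-127070706, plus strand: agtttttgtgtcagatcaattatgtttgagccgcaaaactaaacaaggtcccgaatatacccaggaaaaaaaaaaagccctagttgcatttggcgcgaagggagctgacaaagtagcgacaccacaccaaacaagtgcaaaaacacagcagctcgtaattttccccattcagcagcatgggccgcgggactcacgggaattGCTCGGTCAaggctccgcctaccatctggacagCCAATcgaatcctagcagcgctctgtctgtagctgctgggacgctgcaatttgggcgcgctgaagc
Blvrb, first annotated start, chr7:27447728-27448027, plus strand: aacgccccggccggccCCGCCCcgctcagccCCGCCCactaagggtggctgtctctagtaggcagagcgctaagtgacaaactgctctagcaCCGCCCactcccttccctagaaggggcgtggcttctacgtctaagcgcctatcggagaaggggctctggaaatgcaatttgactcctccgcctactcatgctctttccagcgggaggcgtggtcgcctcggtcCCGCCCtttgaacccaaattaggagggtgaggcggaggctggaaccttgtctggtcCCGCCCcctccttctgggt

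The Alas1 window shown, that of the second annotated start, held the NRF-1 core 3 times, at -222, -195 and -193. Counted from the first annotated start, the same matches lie at +3, +30 and +32. The matches at -195 and -193 overlap in 1 palindrome. Of 32851 RefSeq windows of this length, 9.95% held that core. The Cpox window held 1 GATA motif, at 4 bases after the start, a match found in 3.04% of windows, and none of the other 6 motifs. The Blvra window held 1 antioxidant response element core at -49, found in 12.4% of windows, and 1 CCAAT box at -16, found in 37.4%. The first Blvrb window held 5 GC boxes, which 35.7% of windows held at least once, and none of the other motifs. The E-box, found in 7.15% of windows, and the TATA box, found in 13.6%, were in none of these 4. Matches are descriptions and do not show that a factor bound there.

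As deposited, coproporphyrinogen oxidase and biliverdin reductase B were the members that moved most clearly. Cpox rose at 2 and 3.5 g/L by log2 folds of 0.85 and 0.88, and Blvrb by 0.41 and 0.51. Log2 folds are differences between doses in log2(RPKM + 1), tested with limma and adjusted by Benjamini-Hochberg over all tested genes. With a tag in the sample titles as a term, described below, Blvrb lost its call at 2 g/L. Biliverdin reductase A went the other way, with Blvra lower in all 6 libraries at 3.5 g/L than in any control. Fech rose by small amounts that depended on the scaling between libraries. Alad and Hebp1 were not called against control at any dose as deposited, and Alas1, which varied most between libraries, was not called at any dose.

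At 1 g/L against control none of the 7 members was called, and none had an unadjusted p under 0.05, while 8.35% of all tested genes rose and 3.03% fell. At 2 g/L, 3 of the 7 members rose and 0 fell, against 41.9% and 10.0% of all tested genes. At 3.5 g/L, 3 rose and 1 fell, against 38.6% and 12.9%. Over the linear slope with dose, 3 rose and 1 fell, against 38.0% and 12.6%. These shares lie near the background, so the count of members is no result about the pathway, and single genes are described below. The median log2 fold over the members was -0.01, 0.11 and 0.22 at 1, 2 and 3.5 g/L, beside 0.05, 0.12 and 0.10 over all tested genes. Median-ratio factors and quantile normalization, which centre the folds, brought the overall median at 2 g/L to 0.0096 and 0.0016, so changes of about 0.12 are relative to the scaling. Ranges of libraries are compared throughout as deposited. The median-ratio factors were 0.904 to 0.964 in control and 1.02 to 1.12 at 2 and 3.5 g/L. A rise therefore separates from control more easily on the deposited scale. The share of all tested genes that separate in this way was not counted. Rises made up 73.4%, 80.6% and 74.97% of all calls at 1, 2 and 3.5 g/L as deposited, 42.7%, 54.04% and 52.6% under median-ratio factors, and 52.4%, 51% and 49.7% under quantile normalization. Under either rescaling 2 members rose and 1 fell at 2 g/L, and 2 rose and 2 fell at 3.5 g/L. Under median-ratio factors 3.69%, 22.8% and 24.6% of all tested genes rose at 1, 2 and 3.5 g/L, and 4.94%, 19.4% and 22.1% fell. Under quantile normalization 5.26%, 20.8% and 21.9% rose, and 4.77%, 20.0% and 22.1% fell. Rescaled counts of the other lists below are to be read against these shares.

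**Figure D1:**
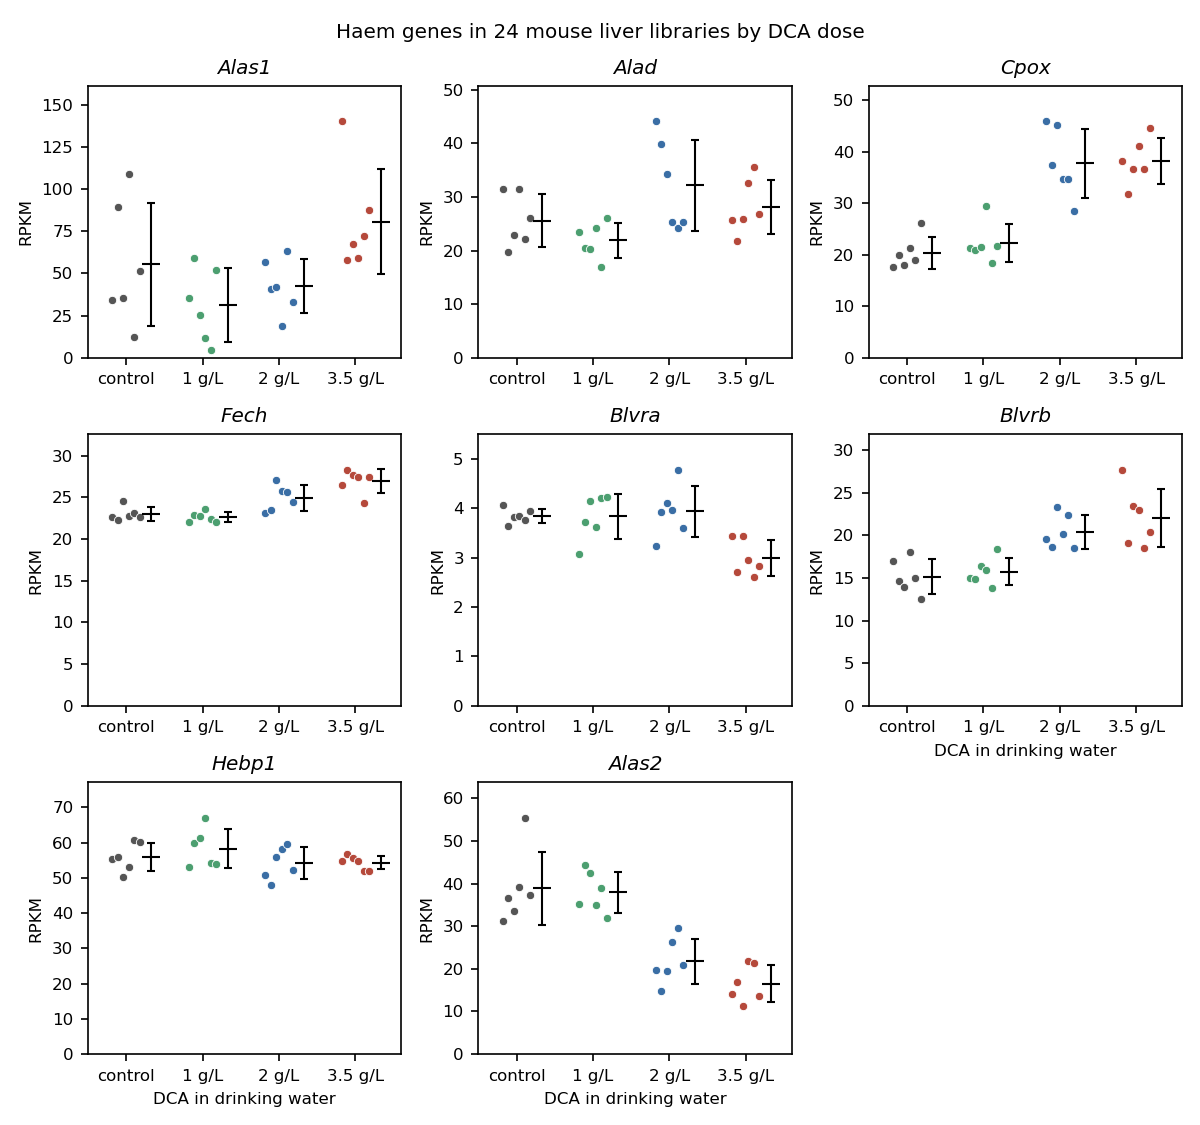
RPKM of the 7 members and of Alas2 in each of 24 liver libraries, by DCA dose. Points are libraries, and bars give the mean and SD of 6 libraries, with every axis starting at 0. As deposited, Cpox, Blvrb and Alas2 at 2 and 3.5 g/L and Blvra at 3.5 g/L do not overlap control. Alas1 has the widest spread relative to its mean at every dose.

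The first step is catalysed by ALA synthase, of which Alas1 encodes the form used in liver and most tissues. Alas1 (chromosome 9, 106233455 to 106248654, minus strand, GRCm38) had lowest, median and highest values of 12.5, 43.6 and 109 RPKM in control, 4.32, 30.4 and 59.3 RPKM at 1 g/L, 19.0, 41.4 and 63.2 RPKM at 2 g/L, and 57.9, 69.8 and 140 RPKM at 3.5 g/L. The ranges of all doses overlapped, and 5 of 6 libraries at 3.5 g/L lay above every library at 1 g/L. Means were 55.4 ± 36.7, 31.3 ± 21.8, 42.6 ± 16.0 and 80.9 ± 31.1 RPKM (SD, n = 6 each). The log2 folds against control were -0.91 (SE 0.50, adjusted p = 0.236) at 1 g/L, -0.17 (SE 0.50, adjusted p = 0.807) at 2 g/L and 0.77 (SE 0.50, adjusted p = 0.206) at 3.5 g/L. The SE of 0.50 means that a change of the size seen for Cpox would not have been detectable in Alas1. The slope was 0.29 per g/L (SE 0.15, adjusted p = 0.108), and it passed the threshold without control 4 (0.36, adjusted p = 0.0477) or without control 6 (0.37, adjusted p = 0.0361).

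The spread of Alas1 between libraries of the same dose was itself unusual. Its SD on the log2(RPKM + 1) scale was 1.09, 1.34, 0.60 and 0.47 at 0, 1, 2 and 3.5 g/L, where the median tested gene had 0.12, 0.11, 0.13 and 0.11. A smaller SD was found in 99.7%, 99.95%, 98.9% and 98.6% of tested genes at these doses. Fech varied much less, with 3.15%, 0.994%, 19.1% and 21.6% of tested genes less variable at 0, 1, 2 and 3.5 g/L. It was not the steadiest member at every dose. Blvra was less variable in control (1.85%), and Hebp1 was at 3.5 g/L (6.06%). The enzyme gene at the start of the chain varied between libraries far more than the one at its end.

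Alas2 encodes the ALA synthase of red cell precursors and is not a member, but it catalyses the same step. It had lowest, median and highest values of 31.2, 37.0 and 55.4 RPKM in control, 32.0, 37.1 and 44.4 RPKM at 1 g/L, 14.8, 20.2 and 29.5 RPKM at 2 g/L, and 11.3, 15.5 and 21.8 RPKM at 3.5 g/L. Every library at 2 and 3.5 g/L lay below every control. Alas2 fell by 0.82 on the log2 scale at 2 g/L (SE 0.16, adjusted p = 0.000179) and by 1.20 at 3.5 g/L (SE 0.16, adjusted p = 1.25e-06). The fall at 2 g/L lost its call with the title tag as a term (-0.62, adjusted p = 0.11). Of 11 erythroid markers tested, Alas2 and the globins among them, 1 rose and 7 fell at 2 g/L, and 1 rose and 5 fell at 3.5 g/L. With the title tag as a term none of the 11 was called at 2 g/L. The globin rows Hbb-b2 and Hbb-bt hold identical values, and with them counted as 1 gene 10 markers were tested, of which 1 rose and 6 fell at 2 g/L and 1 rose and 4 fell at 3.5 g/L. Without 2 g/L library 77, 5 of the 11 were called at 2 g/L in place of 8, and at 3.5 g/L 4 to 9 were called without 1 library. Among all tested genes 10.0% fell at 2 g/L and 12.9% at 3.5 g/L. The summed level of 18 distinct erythroid markers ranged from 310 to 1027 RPKM in control, 381 to 661 RPKM at 1 g/L, 245 to 537 RPKM at 2 g/L and 311 to 639 RPKM at 3.5 g/L. Of these markers 9 had a median under 0.5 RPKM, and the defining genes Gata1, Hemgn and Cldn13 were listed at the table's floor in 19, 14 and 21 of 24 libraries. Their part in the fall of Alas2 was not tested, and in bulk RNA fewer cells of a type and less RNA per cell cannot be told apart.

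ALA dehydratase, encoded by Alad (chromosome 4, 62509169 to 62519918, minus strand), joins a pair of ALA molecules into porphobilinogen. Alad had lowest, median and highest values of 19.7, 24.4 and 31.5 RPKM in control, 16.9, 21.98 and 26.04 RPKM at 1 g/L, 24.2, 29.8 and 44.1 RPKM at 2 g/L, and 21.8, 26.3 and 35.5 RPKM at 3.5 g/L. The ranges of all doses overlapped, with 3 libraries at 2 g/L above every control. Against control the log2 fold was -0.21 (SE 0.15, adjusted p = 0.379) at 1 g/L, 0.30 (SE 0.15, adjusted p = 0.0961) at 2 g/L and 0.13 (SE 0.15, adjusted p = 0.487) at 3.5 g/L. Without 2 g/L library 77 the value at 2 g/L was 0.37 with an adjusted p of 0.0462. Alad was called only between 2 and 1 g/L, as given with the other such comparisons below.

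Uroporphyrinogen synthase and decarboxylase and protoporphyrinogen oxidase, other enzymes of the chain, were not analysed here.

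Cpox (chromosome 16, 58670292 to 58717636, plus strand) encodes coproporphyrinogen oxidase, which acts in the mitochondrial intermembrane space. It had lowest, median and highest values of 17.7, 19.5 and 26.1 RPKM in control, 18.5, 21.4 and 29.5 RPKM at 1 g/L, 28.4, 36.1 and 45.9 RPKM at 2 g/L, and 31.7, 37.5 and 44.7 RPKM at 3.5 g/L. As deposited, every library at 2 and 3.5 g/L lay above every control, while the ranges at 1 g/L and in control overlapped. Control library 8, the highest control, has a median-ratio factor of 0.940, and 2 g/L library 78, the lowest there, has 1.05. Divided by these factors, Cpox in 2 g/L library 78 falls below that control. The level was 1.85 times the control mean at 2 g/L and 1.88 times at 3.5 g/L. Cpox rose by 0.85 (SE 0.12, adjusted p = 2.71e-06) at 2 g/L and by 0.88 (SE 0.12, adjusted p = 1.09e-06) at 3.5 g/L. At 1 g/L the fold was 0.12 (SE 0.12, adjusted p = 0.518). The slope was 0.28 per g/L (adjusted p = 2.8e-06). Both rises were called under every alternative run, with the title tag as a term among them at 2 g/L. Cpox overlaps the opposite-strand gene Gpr15, whose mean was 0.0081 RPKM, and Hebp1 overlaps Gm19434 on the other strand, at 0.019 RPKM. Hebp1 also overlaps the opposite-strand protein-coding gene Fam234b, an opposite-strand snoRNA gene and a same-strand processed pseudogene, and Alas1 overlaps an annotated antisense gene, none of which was analysed here. Since the use of strand in counting is not given, reads of these overlapping genes cannot be told apart.

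Ferrochelatase, encoded by Fech (chromosome 18, 64452914 to 64490251, minus strand), varied little between libraries. It had lowest, median and highest values of 22.3, 22.7 and 24.6 RPKM in control, 22, 22.6 and 23.5 RPKM at 1 g/L, 23.1, 24.99 and 27.1 RPKM at 2 g/L, and 24.3, 27.4 and 28.3 RPKM at 3.5 g/L. At 3.5 g/L 5 of 6 libraries lay above every control, and at 2 g/L 3 of 6 did. Fech rose by 0.22 (SE 0.04, adjusted p = 0.000283) at 3.5 g/L as deposited, and the call was lost under median-ratio factors (0.09, adjusted p = 0.0663) and under quantile normalization (0.04, adjusted p = 0.398). It rose by 0.11 (SE 0.04, adjusted p = 0.0449) at 2 g/L as deposited, below the median shift of all genes, and its sign turned, to -0.04 under median-ratio factors and to -0.07 under quantile normalization. The call at 2 g/L was lost with the title tag as a term (0.10, adjusted p = 0.419) and with only control and 2 g/L fitted (adjusted p = 0.101). It was also lost in 12 of the 24 fits that left out 1 library, where the fold ranged from 0.085 to 0.13 and the adjusted p reached 0.123. These 12 left out control 3, 4, 6, 7 or 8, 1 g/L 50 or 51, 2 g/L 75, 76 or 77, or 3.5 g/L 100 or 102. At 1 g/L the fold was -0.02 (SE 0.04, adjusted p = 0.758). The slope of Fech was 0.07 per g/L, and its call was lost under median-ratio factors (0.03, adjusted p = 0.0626) and under quantile normalization (0.01, adjusted p = 0.411).

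Hebp1 (chromosome 6, 135137522 to 135198022, minus strand) encodes a cytosolic protein that binds haem and porphyrins. It had the highest median of the members in control, at 1 g/L and at 2 g/L. Its lowest, median and highest values were 50.3, 55.7 and 60.7 RPKM in control, 53.0, 57.0 and 67.0 RPKM at 1 g/L, 48.1, 54.1 and 59.6 RPKM at 2 g/L, and 52.0, 54.8 and 56.9 RPKM at 3.5 g/L. The 4 ranges overlapped throughout. As deposited, the log2 folds were 0.05 (SE 0.06, adjusted p = 0.604), -0.05 (SE 0.06, adjusted p = 0.556) and -0.04 (SE 0.06, adjusted p = 0.634) at 1, 2 and 3.5 g/L. With median-ratio factors Hebp1 was called lower at 2 g/L (-0.20, adjusted p = 0.00956) and at 3.5 g/L (-0.17, adjusted p = 0.0223), and with quantile normalization likewise (-0.22, adjusted p = 0.0041, and -0.20, adjusted p = 0.00645). Whether it was level or lower thus rests on the scaling between libraries.

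**Figure D2:**
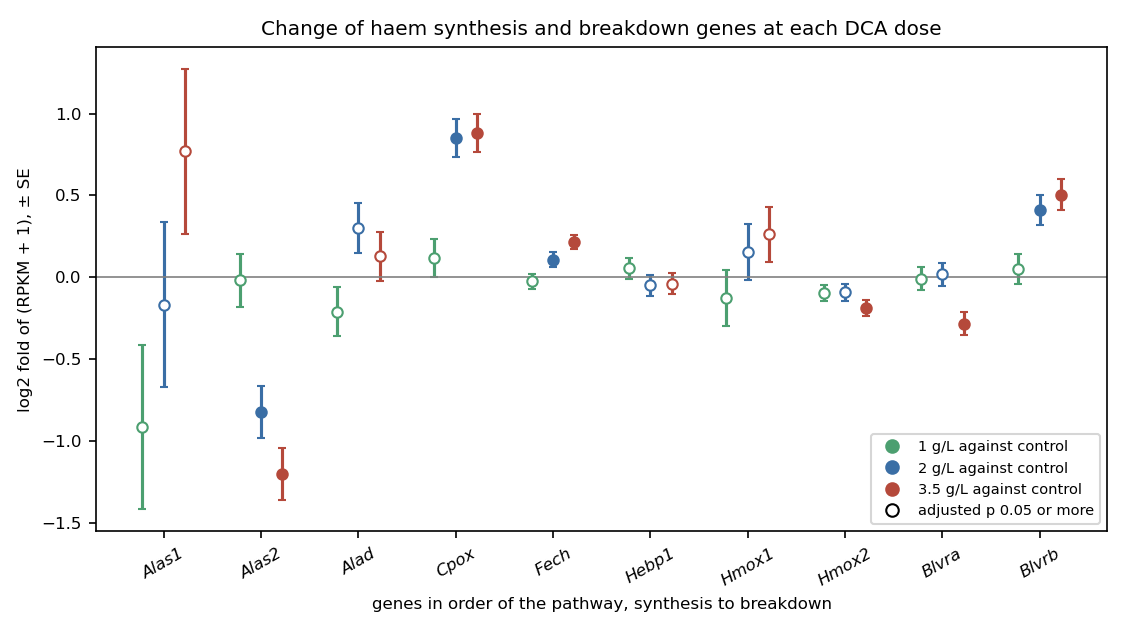
Log2 fold of (RPKM + 1) against control at 1, 2 and 3.5 g/L, with the limma SE, for the members and for Alas2, Hmox1 and Hmox2 in pathway order. Filled points have an adjusted p under 0.05. Cpox lies at 0.85 and 0.88 at the higher doses, Alas2 at -0.82 and -1.20, and Alas1 has the longest error bars.

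Haem oxygenases start the breakdown, and neither was called higher. Hmox1, the inducible form, averaged 4.72 ± 0.566, 4.25 ± 0.630, 5.77 ± 2.93 and 5.88 ± 0.942 RPKM at 0, 1, 2 and 3.5 g/L (SD, n = 6 each). Its log2 fold at 3.5 g/L was 0.26 (SE 0.17, adjusted p = 0.199), and it was called when only control and 3.5 g/L entered the fit (adjusted p = 0.0334). Hmox2, the constitutive form, fell by 0.19 at 3.5 g/L (SE 0.05, adjusted p = 0.00334), with a mean of 12.04 ± 0.707 RPKM against 13.8 ± 0.739 RPKM in control. At 2 g/L Hmox2 was not called as deposited (-0.09, adjusted p = 0.13) but was called lower under median-ratio factors (-0.24, adjusted p = 0.000254) and under quantile normalization (-0.26, adjusted p = 6.15e-05).

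Blvra (chromosome 2, 127070665 to 127097084, plus strand) encodes biliverdin reductase A, which makes the main adult form of bilirubin. It was the member with the lowest level, from about 160 to 290 estimated reads a library. Its lowest, median and highest values were 3.64, 3.84 and 4.06 RPKM in control, 3.08, 3.93 and 4.23 RPKM at 1 g/L, 3.24, 3.94 and 4.78 RPKM at 2 g/L, and 2.62, 2.89 and 3.44 RPKM at 3.5 g/L. All 6 libraries at 3.5 g/L lay below every control, while at 1 and 2 g/L the ranges enclosed that of control. Blvra fell by 0.28 at 3.5 g/L (SE 0.07, adjusted p = 0.0017), to 0.779 times the control mean in RPKM. The fall was called under every alternative run, but at that dose the title tag and the dose cannot be told apart. At 1 and 2 g/L the folds were -0.01 (SE 0.07, adjusted p = 0.947) and 0.02 (SE 0.07, adjusted p = 0.829).

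Blvrb (chromosome 7, 27447978 to 27466144, plus strand) encodes biliverdin reductase B, which also reduces flavins. It had lowest, median and highest values of 12.5, 14.8 and 17.99 RPKM in control, 13.8, 15.4 and 18.3 RPKM at 1 g/L, 18.5, 19.9 and 23.3 RPKM at 2 g/L, and 18.5, 21.7 and 27.7 RPKM at 3.5 g/L. As deposited, every library at 2 and 3.5 g/L lay above every library at 1 g/L and in control. Control library 6 has a median-ratio factor of 0.961, 2 g/L library 78 has 1.05 and 3.5 g/L library 101 has 1.02. Divided by these factors, Blvrb in libraries 78 and 101 falls below that control. Blvrb rose by 0.41 (SE 0.09, adjusted p = 0.000768) at 2 g/L and by 0.51 (SE 0.09, adjusted p = 7.84e-05) at 3.5 g/L. At 1 g/L the fold was 0.05 (SE 0.09, adjusted p = 0.744). With the title tag as a term the value at 2 g/L was 0.36 and lost its call (adjusted p = 0.114). At 3.5 g/L the title tag and the dose cannot be told apart. The slope was 0.16 per g/L (adjusted p = 2.63e-05), against -0.08 per g/L for Blvra (adjusted p = 0.00468).

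Because both reductases were measured in the same library, their ratio does not change with a single scaling factor per library, such as a median-ratio factor, although quantile normalization can move it. The ratio of Blvrb to Blvra RPKM had lowest, median and highest values of 3.16, 4.00 and 4.68 in control, 3.29, 4.17 and 4.84 at 1 g/L, 4.67, 5.12 and 6.04 at 2 g/L, and 6.80, 7.12 and 8.05 at 3.5 g/L. All 6 libraries at 3.5 g/L lay above all 18 others, and 2 g/L touched the ranges below it. The ratio was formed after the values of both genes were seen, so no test is given. The ratio of Alas1 to Alas2 averaged 1.497 ± 0.949, 0.834 ± 0.589, 2.05 ± 0.802 and 5.32 ± 2.75 at 0, 1, 2 and 3.5 g/L (SD, n = 6 each), with the lowest value at 3.5 g/L, 2.73, just under the highest control, 2.77.

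**Figure D3:**
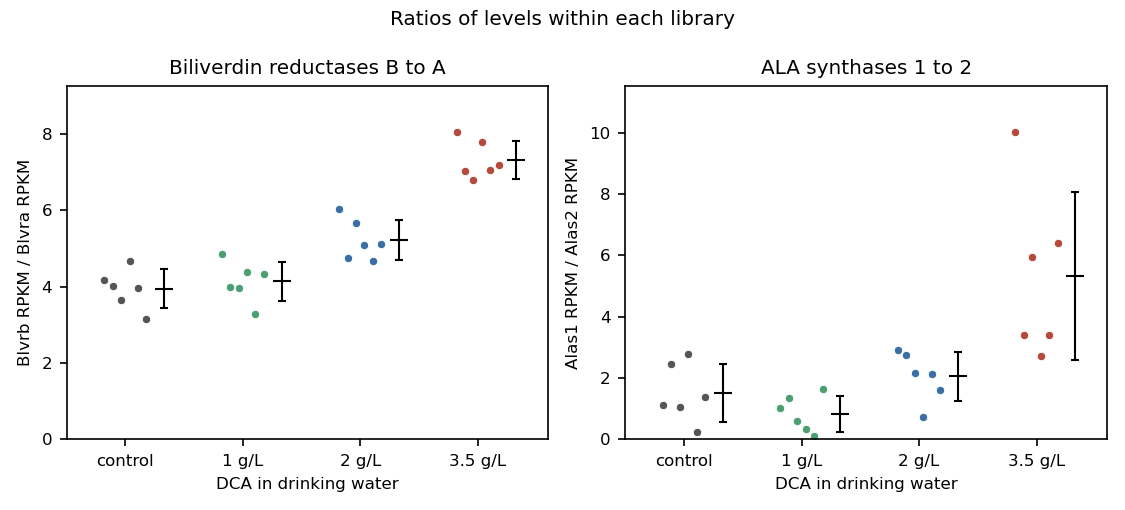
Ratio of Blvrb to Blvra (left) and of Alas1 to Alas2 (right) within each library, by DCA dose, with the mean and SD of 6 libraries. The Blvrb to Blvra ratio at 3.5 g/L lies between 6.80 and 8.05 and above all other libraries.

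The treated doses were also compared with each other. At 2 g/L against 1 g/L, 4 members rose and 0 fell, against 22.7% and 5.63% of all tested genes. These were Cpox (0.73, SE 0.12, adjusted p = 5.99e-05), Alad (0.51, SE 0.15, adjusted p = 0.0135), Blvrb (0.36, SE 0.09, adjusted p = 0.00559) and Fech (0.13, SE 0.04, adjusted p = 0.0282). Under median-ratio factors 2 members rose and 1, Hebp1, fell (-0.19, adjusted p = 0.0241), against 12.8% and 10.2% of all tested genes. The Alad call was lost with median-ratio factors (0.42, adjusted p = 0.053), with quantile normalization (0.38, adjusted p = 0.0944) and with the title tag as a term (0.49, adjusted p = 0.101). The Fech call was lost under median-ratio factors (0.05, adjusted p = 0.429), with the title tag as a term (0.13, adjusted p = 0.14) and in 5 of the 24 fits without 1 library, and its sign turned under quantile normalization (-0.01). The Blvrb call was lost under quantile normalization (0.23, adjusted p = 0.0537). Within the L2 tag, where 3 libraries of 1 g/L were left, the Cpox rise alone was called, with Blvrb at 0.33 (adjusted p = 0.0654). At 3.5 g/L against 2 g/L, 0 members rose and 1 fell, against 4.79% and 5.54%. An unadjusted p under 0.05 was reached by 2, and the share of all tested genes under that limit was not counted. The fall was in Blvra (-0.30, adjusted p = 0.00792), and Cpox and Blvrb differed by 0.03 (adjusted p = 0.908) and 0.09 (adjusted p = 0.554). Fech was called higher under median-ratio factors (0.13, adjusted p = 0.0312).

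**Figure D4:**
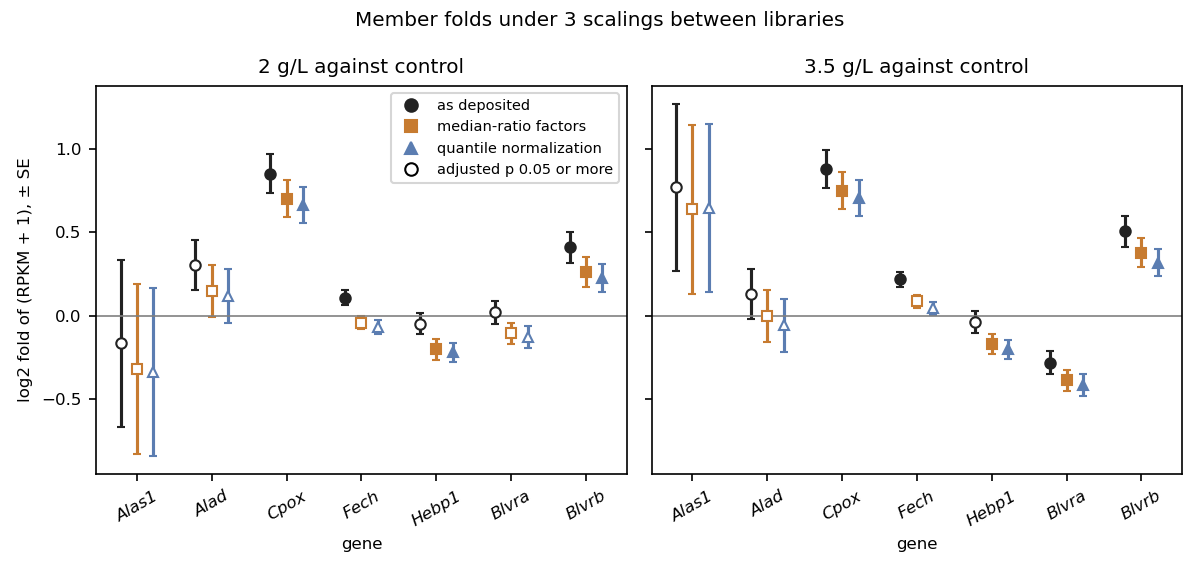
Log2 folds of the 7 members at 2 g/L (left) and 3.5 g/L (right) against control, with SE, as deposited and under median-ratio factors and quantile normalization. Filled points have an adjusted p under 0.05. Cpox and Blvrb stay called and higher under all 3 scalings, Hebp1 is called lower under both rescalings but not as deposited, and Fech at 2 g/L changes sign.

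The title tags L1, L2 and L3, whose meaning the labels do not give, follow dose in part. The L1 tag covers every control and 3 libraries of 1 g/L, L2 covers the other 3 and all of 2 g/L, and L3 covers all of 3.5 g/L. At 3.5 g/L no change, those of Cpox, Blvrb, Fech and Alas2 among them, can be told apart from the tag. Within 1 g/L, Cpox averaged 23.3 RPKM in L2 (18.5 to 29.5) and 21.3 RPKM in L1 (n = 3 each), Blvrb 16.0 RPKM in L2 and 15.4 RPKM in L1, and Alas1 22.6 RPKM in L2 and 40.03 RPKM in L1.

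Genes whose pattern was most like that of a called member were found by the root mean square difference of log2(RPKM + 1) centred on the control mean, over 24 libraries. For Cpox these included Cdc34 (0.143) and Acad11 (0.155), an acyl-CoA dehydrogenase. For Blvrb they were Gatad2a (0.127), Nmnat1 (0.130) and Afg3l2 (0.134). For Fech they were Kansl1 (0.0592), Gart (0.0663) and Kansl2 (0.0726), and for Blvra Herc6 (0.117), Mgat5 (0.120) and Lin9 (0.120). Among the members the one nearest to Cpox was Blvrb, at a difference of 0.372, the 525th smallest of all tested genes.

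Other genes of haem synthesis and breakdown came from a list of 8, of which 5 were in the table and tested: 2 rose and 1 fell at 2 g/L, and 2 rose and 2 fell at 3.5 g/L. Of all tested genes 41.9% rose and 10.0% fell at 2 g/L, and 38.6% rose and 12.9% fell at 3.5 g/L. As deposited none of the 5 was called at 1 g/L, and none had an unadjusted p under 0.05 there, while under either rescaling 1 fell. The rises were in the enzymes that make haem a for cytochrome oxidase, Cox10 (0.42 and 0.53 at 2 and 3.5 g/L) and Cox15 (0.33 and 0.26). With the title tag as a term the calls at 2 g/L for Cox10 (0.35, adjusted p = 0.0517) and Cox15 (0.17, adjusted p = 0.141) were lost, and the call for Cox15 at 3.5 g/L was lost under quantile normalization (0.098, adjusted p = 0.08).

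Of 22 tested genes of iron supply and iron-sulphur cluster assembly, 3 rose and 0 fell at 1 g/L, 15 rose and 1 fell at 2 g/L, and 14 rose and 1 fell at 3.5 g/L. The shares of all tested genes that rose were 8.35%, 41.9% and 38.6% in the same order, and 3.03%, 10.0% and 12.9% fell. The count at 1 g/L was 1 without control 3 and 0 with the title tag as a term. The 22 genes had median log2 folds of 0.28 at 2 g/L and 0.31 at 3.5 g/L. Under either rescaling 9 rose at 2 g/L, and with the title tag as a term 5 did. The largest rises were in Ftl1, the ferritin light chain (0.92 and 0.90), Glrx5, which carries iron-sulphur clusters (0.78 and 0.64), and Hfe2, the hepcidin co-receptor hemojuvelin (0.54 and 0.71). Cp, the ferroxidase ceruloplasmin, fell by 0.26 and 0.60, the first of which was not called with the title tag as a term (-0.30, adjusted p = 0.365), without the filter (adjusted p = 0.0843) or with only control and 2 g/L fitted (adjusted p = 0.132). Of 10 tested genes of haem and porphyrin transport and binding, 1 rose and 1 fell at 1 g/L, 4 rose and 2 fell at 2 g/L, and 2 rose and 4 fell at 3.5 g/L. Among all tested genes 8.35%, 41.9% and 38.6% rose at these doses, and 3.03%, 10.0% and 12.9% fell. At 2 g/L 2 rose and 2 fell under median-ratio factors, 2 rose and 3 fell under quantile normalization, and 1 was called with the title tag as a term. At 1 g/L 1 was called, in place of 2, without control 3, 5 or 8 or without 1 g/L library 50, 51, 52, 53 or 54, and under either rescaling 1 fell and 0 rose. Fabp1, the fatty acid binding protein that also binds haem, rose by 1.82 and 1.57, and Abcg2, a porphyrin exporter, rose by 0.90 at 2 g/L, a call lost with the title tag as a term (0.85, adjusted p = 0.0674). At 3.5 g/L the Abcg2 fold was 0.28 (adjusted p = 0.177), with means of 30.9 ± 8.22 RPKM at 2 g/L and 19.3 ± 4.69 RPKM at 3.5 g/L, against 15.5 ± 2.32 RPKM in control. Hpx, the plasma haem carrier hemopexin, fell by 1.06 at 3.5 g/L, where its mean was 836 ± 138 RPKM against 1797 ± 638 RPKM in control.

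Of 15 tested regulators of Alas1 and haem-sensing factors, 4 rose and 2 fell at 1 g/L, 5 rose and 2 fell at 2 g/L, and 9 rose and 3 fell at 3.5 g/L. Over all tested genes the shares that rose were 8.35%, 41.9% and 38.6% at these doses, and the shares that fell were 3.03%, 10.0% and 12.9%. Under either rescaling 3 regulators rose and 3 fell at 2 g/L. The haem-binding clock repressors Nr1d1 and Nr1d2 rose most, by 2.33 and 1.62 at 2 g/L and by 2.90 and 1.83 at 3.5 g/L. Nfe2l2, which encodes NRF2, a factor that acts through antioxidant response elements, rose by 1.06 and 1.49. Nr1i3, the receptor CAR, rose by 0.55 at 3.5 g/L (adjusted p = 0.000708). Its fold at 2 g/L was 0.11 (adjusted p = 0.49), with the sign turned under both other scalings. Clpx, a mitochondrial unfoldase that acts on ALA synthase, rose by 0.43 and 0.42, and Lonp1, a protease that degrades ALAS1, fell by 0.31 and 0.27, and by 0.25 at 1 g/L. The Clpx call at 2 g/L was lost under median-ratio factors (0.28, adjusted p = 0.0613) and under quantile normalization (0.23, adjusted p = 0.135), and the call at 3.5 g/L with quantile normalization (0.27, adjusted p = 0.0819). With the title tag as a term the calls at 2 g/L were lost for Clpx (0.28, adjusted p = 0.191) and Lonp1 (-0.39, adjusted p = 0.0984).

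Of 17 tested haem proteins of hepatocytes, 7 rose and 5 fell at 2 g/L, and 8 rose and 5 fell at 3.5 g/L. At these doses 41.9% and 38.6% of all tested genes rose, and 10.0% and 12.9% fell. Under median-ratio factors the balance turned, with 5 up and 6 down at 2 g/L and 6 up and 7 down at 3.5 g/L, and under quantile normalization it was 6 up and 6 down at 2 g/L and 9 up and 5 down at 3.5 g/L. With the title tag as a term 4 rose and 3 fell at 2 g/L. At 1 g/L none was called as deposited, where 8.35% of all tested genes rose and 3.03% fell. There 7 had an unadjusted p under 0.05, a limit at which the share of all tested genes was not counted. At that dose 2 fell under median-ratio factors, and 1 rose under quantile normalization. Without 1 g/L library 49, 2 were called, and 1 was called without control 7 or 8. Cyp4a14 and Cyp4a10, cytochromes P450 that hydroxylate fatty acids, rose by 8.42 and 7.20 at 2 g/L and by 9.26 and 7.96 at 3.5 g/L, and their reads may be shared with near-identical family members. Cyp7b1, the oxysterol hydroxylase, fell by 2.09 at 3.5 g/L. Cyp2a5, the mouse coumarin hydroxylase, which also has near-identical family members, rose by 0.68 at 2 g/L (adjusted p = 0.0168) and by 1.64 at 3.5 g/L (adjusted p = 3.31e-06). Its call at 2 g/L was lost under median-ratio factors (adjusted p = 0.0599), under quantile normalization (adjusted p = 0.0712), with the title tag as a term (adjusted p = 0.263) and without 2 g/L library 75 (0.48, adjusted p = 0.0586). Sums over cytochromes P450 were formed with results known and are given without a test. Summed over 84 genes of the Cyp1 to Cyp4 families, the level averaged 5111 ± 494, 4969 ± 527, 5302 ± 603 and 6881 ± 601 RPKM at 0, 1, 2 and 3.5 g/L (SD, n = 6 each). Without the Cyp4a genes the sum averaged 4999 ± 476, 4842 ± 517, 3694 ± 399 and 4501 ± 149 RPKM, and its libraries at 2 g/L, 3057 to 4230 RPKM, lay below every control, of which the lowest was 4277 RPKM.

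Of 8 tested genes of bilirubin and biliverdin disposal, 6 rose and 1 fell at 2 g/L, and 7 rose and 0 fell at 3.5 g/L, with median log2 folds of 0.82 and 1.49. Beside them, 41.9% of all tested genes rose and 10.0% fell at 2 g/L, and 38.6% rose and 12.9% fell at 3.5 g/L. This list, like the others, was chosen with earlier results of these data known, so its counts are descriptions only. None was called at 1 g/L, and none had an unadjusted p under 0.05 there. Under either rescaling 5 rose and 1 fell at 2 g/L, and 6 rose and 0 fell at 3.5 g/L. Ugt1a1, whose enzyme conjugates bilirubin, was not analysed here. With the title tag as a term 2 were called at 2 g/L, and the calls of Abcc3 (0.83, adjusted p = 0.0778) and Gstm1 (0.64, adjusted p = 0.154) were lost. Abcc3, the basolateral exporter of conjugates, rose by 1.25 and 1.51. The glutathione transferases Gsta1 and Gsta2, which are near-identical and may share reads, rose by 1.96 and 1.70 at 2 g/L and by 2.56 and 2.50 at 3.5 g/L, and Gstm1 rose by 0.96 and 1.48.

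Markers of the cells in these livers moved as well. Of 10 tested hepatocyte markers 2 fell at 1 g/L, 7 fell at 2 g/L and all 10 fell at 3.5 g/L, against 3.03%, 10.0% and 12.9% of all tested genes. With the title tag as a term 4 fell at 2 g/L. Alb, at a median of 17586 RPKM over 24 libraries, was the largest part of their summed level. That level ranged from 32346 to 39701 RPKM in control, 30011 to 35380 RPKM at 1 g/L, 24880 to 36747 RPKM at 2 g/L and 23850 to 30171 RPKM at 3.5 g/L. The part of these falls in the changes of the members was not tested. Of 13 tested Kupffer cell and macrophage markers 0 were called at 2 g/L as deposited (0 had an unadjusted p under 0.05) and 10 fell at 3.5 g/L, among them Clec4f (-0.55). At 2 g/L 1 fell under median-ratio factors and 2 under quantile normalization, and 1 was called without 2 g/L library 76 or 78. Among all tested genes 12.9% fell at 3.5 g/L. Their summed level ranged from 108 to 155 RPKM in control, 104 to 129 RPKM at 1 g/L, 75.4 to 161 RPKM at 2 g/L and 74.8 to 100.4 RPKM at 3.5 g/L. As deposited, Blvra and Hmox2 fell at 3.5 g/L, the dose where 10 macrophage markers and all 10 hepatocyte markers fell. Under median-ratio factors and quantile normalization Hmox2 was called lower at 2 g/L too (-0.24 and -0.26). The part of either set of markers in the falls of Blvra and Hmox2 was not tested.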

How the data were processed

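Liver RNA of 24 libraries was measured. The values are RPKM per gene, reads scaled by gene length and library total, as deposited by the authors in 1 table. CASAVA, STAR 2.4, Partek and mm10 are named, with no role, per the submitters' processing notes, and the gene models and use of strand are not given in the sources used here. The table is in symbol order and was used up to the symbol where its last line breaks off, so later genes were not analysed here. Some other genes are not reported here. From steps between low values, relative depth between libraries was 0.94 to 1.118, and with annotated gene lengths the depth was about 18100000 to 28600000 reads a library (interquartile range of the estimate over genes).

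The test took the 6540 genes that reached 0.5 RPKM in 6 or more libraries. A mean for each dose was fitted to log2(RPKM + 1) over all libraries with limma 3.58.1 (R 4.3.3) and a trended variance. Two-sided p-values were adjusted by Benjamini-Hochberg over these genes, with a threshold of 0.05. Low genes change by more than such a log2 fold shows. The fit was tested on simulated data. Members and gene lists were chosen with earlier results of these data known. Every member is named. Of each other list up to 4 genes with the largest called change at 2 or 3.5 g/L are named, with genes that act directly on a member. Alternatives changed the pseudocount, filter, scaling, variance model, samples fitted and title tag, and left out each library. Gene coordinates are from GENCODE M21 (GRCm38), and promoter windows and sequences from RefSeq (GRCm38.p6).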

Additional observations from a re-analysis of the deposited data

Results flagged for a closer look

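In 4 of 40 groups of 6 libraries, over 10 haem genes, the highest library lay farther from its nearest neighbour than Dixon's limit for 95% of groups, a limit that chance passes in about 1 in 20 groups. Alas1 was 140 RPKM in 3.5 g/L library 97, where the next library had 88.0 RPKM. Cpox was 29.5 RPKM in 1 g/L library 52, with the next at 21.8 RPKM; without it the fold at 1 g/L was 0.04. Alas2 was 55.4 RPKM in control library 7, with the next at 39.3 RPKM, and that library also had the lowest control Alas1, 12.5 RPKM. Hmox1 was 11.3 RPKM in 2 g/L library 74, with the next at 5.89 RPKM.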

How the results depend on the processing

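Of 322 values of the members recomputed under other settings with all libraries, 280 kept their direction and their side of the threshold, 17 lost a call, 9 gained one and 16 changed sign, 3 of these (all Fech) from a call. Of 390 values of other named genes, 364 kept both, 18 lost a call, 3 gained one and 5 changed sign. With the title tag as a term, 1 member was called at 2 g/L against control, in place of 3, and 2 at 2 g/L against 1 g/L, in place of 4. That last count was 1 within tag L2 and 2 under quantile normalization. At 3.5 g/L against 2 g/L it was 2 under median-ratio factors, in place of 1. Over all tested genes the title tag as a term left 92 calls at 1 g/L in place of 744, 864 at 2 g/L in place of 3395, and 837 for 2 against 1 g/L in place of 1855. Under median-ratio factors the sign changed at 1 g/L for Blvrb (-0.00975) and Hebp1 (-0.0103), at 2 g/L for Fech (-0.042), Blvra (-0.11) and Nr1i3 (-0.041), at 3.5 g/L for Alad (-0.00076), and at 2 against 1 g/L for Blvra (-0.042). Under quantile normalization it changed at 1 g/L for Blvrb (-0.00022), at 2 g/L for Fech (-0.068), Blvra (-0.13), Hmox1 (-0.020) and Nr1i3 (-0.076), at 3.5 g/L for Alad (-0.058), and at 2 against 1 g/L for Fech (-0.014) and Blvra (-0.058). With the title tag as a term it changed at 2 g/L for Alas1 (1.18), Blvra (-0.096), Nr1i3 (-0.075) and Hpx (0.12), and at 2 against 1 g/L for Blvra (-0.029, likewise -0.029 within L2). Leaving out 1 library kept 973 of 1008 member values on their side and sign. The sign changed within these ranges: Blvra -0.033 to 0.039 at 1 g/L, -0.027 to 0.063 at 2 g/L and -0.018 to 0.072 at 2 against 1 g/L, Alas1 -0.52 to 0.088, Hmox1 -0.037 to 0.27 and Hpx -0.28 to 0.0095 at 2 g/L, and Cpox -0.048 to 0.087 and Hebp1 -0.023 to 0.037 at 3.5 against 2 g/L. Without 1 library, 0 members were called at 1 g/L, 2 to 3 at 2 g/L, 4 at 3.5 g/L, 3 to 4 at 2 against 1 g/L, 1 at 3.5 against 2 g/L and 4 to 5 over the slope. The causes were not tested. No paired analysis was possible because the doses share no replicate numbers. About 160 reads lie behind the lowest Blvra value, so counting error adds to its spread.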
